A study of Homo sapiens with 6 samples.

Results

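Described here are 10 genes of Polycomb repressive complex 2 (PRC2) and of DNA methylation: EZH1, EZH2, EED, SUZ12, JARID2, DNMT1, DNMT3A, DNMT3B, UHRF1 and TET2. They were taken by symbol from a table of 31413 genes, where each had 1 row, and all 10 were among the 17160 genes that passed the low-count filter and were tested. The cells were C42, an established line of human prostate cancer that descends from LNCaP, grown in RPMI medium with serum. The tested group carried an shRNA against NSD2 (shNSD2, replicates 1, 2 and 3), and its controls carried a control shRNA (shCTR, replicates 1, 2 and 4). NSD2, also named WHSC1, is the methyltransferase that places dimethylation on H3K36. The labels name a single shRNA against NSD2 in a single cell line, and give no culture of origin for each library. The p-values therefore weigh differences against the variation among these libraries, some or all of which may be technical.

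PRC2 places trimethylation on H3K27, a mark of silent genes. Its catalytic subunit is EZH2 or the related EZH1. EED binds the finished mark and SUZ12 holds the complex together, and neither EZH protein works without them. JARID2 is an accessory subunit that helps bring the complex to chromatin. DNA methylation is kept through cell division by DNMT1, which UHRF1 guides to newly copied DNA, and it is placed anew by DNMT3A and DNMT3B. TET2 oxidises the methyl group, the first step of its removal. The systems meet at NSD2: H3K36 methylation hinders PRC2 on the same histone tail, and the PWWP domain of DNMT3A binds it. EZH2, DNMT1 and UHRF1 are also known as genes of dividing cells under the control of E2F factors. RNA counts measure the transcripts of these enzymes and not the marks.

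The knockdown lowered NSD2 to 40.7% of its level in shCTR (log2 fold change -1.30, SE 0.0870, edgeR quasi-likelihood test, adjusted p = 8.03e-05). Total counts were 19448983 to 20462197 in the shNSD2 libraries and 19412896 to 20665494 in the shCTR libraries. At an adjusted p under 0.05 over all genes tested, 2658 genes were higher and 2605 lower in shNSD2, with a median log2 fold change of 0.01. Luminal prostate markers summed to 10676 to 11134 CPM (counts scaled to library size) in shNSD2 and 11351 to 12434 CPM in shCTR, with 10 of 10 detected, KRT8 (0.41) and KRT18 (0.48) called higher and KLK2 (-0.37) among those called lower. Without any library other than shCTR 4, at most 1 luminal marker was called in each direction. Of 7 leukocyte markers, 5 had a row and the highest count of any was 14. Of 7 fibroblast and endothelial markers, 5 had a row, summing to 9.99 to 11.1 CPM in shNSD2 and 7.45 to 7.95 CPM in shCTR. VWF, the endothelial von Willebrand factor, made up most of that and rose (log2 fold change 0.43, edgeR adjusted p = 0.0273), a call lost in each fit without a library other than shCTR 4.

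Of the 10 genes, 4 fell in shNSD2 and 0 rose (edgeR adjusted p under 0.05; 0 were higher at an unadjusted p under 0.05 and by DESeq2 or limma-voom). They were UHRF1, DNMT1, EZH2 and SUZ12. SUZ12 was not called in 5 of the 6 fits with a library left out, and after correction for GC content and length 3 were lower and 2 higher (EZH1 and DNMT3A). Over all genes tested, 15.2% were called lower, 15.5% higher and 30.7% either way. The median log2 fold change of the 10 genes was -0.24. In bulk RNA, fewer cells that express a gene and less of its RNA per cell cannot be told apart.

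The sequence before the start site of these 4 genes is shown because they were the ones called lower, and that of EZH1 because it is the paralog of EZH2 that was not called. Each stretch holds 230 bases before and 20 after the first start listed for the gene by RefSeq on GRCh38.p14, and capitals mark the letters TTTNNCGC on either strand, a form of the motif of E2F factors. They are EZH2 (chr7:148884272-148884521, minus strand), SUZ12 (chr17:31936777-31937026, plus strand), DNMT1 (chr19:10194934-10195183, minus strand), UHRF1 (chr19:4909271-4909520, plus strand) and EZH1 (chr17:42745021-42745270, minus strand).
EZH2: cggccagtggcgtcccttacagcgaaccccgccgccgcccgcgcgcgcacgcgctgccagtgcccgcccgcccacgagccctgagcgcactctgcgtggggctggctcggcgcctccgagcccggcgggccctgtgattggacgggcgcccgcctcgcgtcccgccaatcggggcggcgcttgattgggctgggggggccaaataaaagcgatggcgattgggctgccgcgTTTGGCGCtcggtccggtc
SUZ12: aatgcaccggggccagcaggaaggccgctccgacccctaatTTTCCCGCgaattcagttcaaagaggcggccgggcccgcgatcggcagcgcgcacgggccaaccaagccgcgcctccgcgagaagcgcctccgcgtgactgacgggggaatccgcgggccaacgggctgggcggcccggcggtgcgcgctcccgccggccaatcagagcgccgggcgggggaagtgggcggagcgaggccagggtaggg
DNMT1: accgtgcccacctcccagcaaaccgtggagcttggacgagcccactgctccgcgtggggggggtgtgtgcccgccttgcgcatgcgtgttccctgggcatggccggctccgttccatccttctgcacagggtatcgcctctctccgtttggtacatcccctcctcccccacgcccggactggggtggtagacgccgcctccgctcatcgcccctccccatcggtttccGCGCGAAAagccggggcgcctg
UHRF1: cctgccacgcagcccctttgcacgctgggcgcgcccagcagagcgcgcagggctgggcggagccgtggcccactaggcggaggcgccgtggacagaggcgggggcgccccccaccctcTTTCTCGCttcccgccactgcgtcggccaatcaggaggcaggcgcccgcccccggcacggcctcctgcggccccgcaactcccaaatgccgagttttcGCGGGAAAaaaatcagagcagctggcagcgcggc
EZH1: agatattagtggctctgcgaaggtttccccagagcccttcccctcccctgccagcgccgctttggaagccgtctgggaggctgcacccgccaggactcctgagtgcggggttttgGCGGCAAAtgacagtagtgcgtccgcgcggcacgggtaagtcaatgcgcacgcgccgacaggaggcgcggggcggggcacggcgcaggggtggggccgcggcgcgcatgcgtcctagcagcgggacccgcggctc
In EZH2 the match lay just after the start (2 to 9), in DNMT1 across it (-2 to 6), in UHRF1 at -112 to -105 and at -14 to -7, in SUZ12 at -189 to -182, and in EZH1 at -115 to -108. The windows of EED, JARID2, DNMT3A, DNMT3B and TET2 held no match. That of DNMT3B (chr20:32779622-32779871) lay inside the annotated gene, which starts at 32762385. The windows of UHRF1 and DNMT1 also lay inside their annotated genes. UHRF1 starts at 4903080 on the plus strand, and DNMT1 at 10231286 on the minus strand. Genes with several entries, such as DNMT3A with 6 and UHRF1 with 3, were searched at the first only. The motif was searched after the values were seen, on both strands, in 250 bases before and 50 after each start.

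Over 27305 promoters of that length, 6.90% held the motif, and over the 10716 tested genes with a matched promoter 10.4% did. In the S-phase list described further on, 12 of 17 matched promoters held it. Of the tested genes with the motif, 19.7% were called lower and 14.4% higher, against 16.9% lower and 16.9% higher of those without it. The CCAAT box, bound by NF-Y, stood in 6 of the 10 windows, 4 times in EZH2, in 36.7% of the promoters of tested genes and in 35.7% of all promoters. The SP1 motif GGGCGG stood in 6 of the 10 windows in 68.9% of those of the tested genes and in 44.6% of all promoters. No match of a motif overlapped a match of another motif in these windows, though neighbouring GGGCGG matches in EZH2 shared letters. A match of letters is a description and not evidence of a bound factor.

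UHRF1, the guide of DNMT1, fell most of the 10 genes. Its level was 33.3, 43.1 and 43.2 CPM in shNSD2 1, 2 and 3, against 71.4, 68.9 and 68.6 CPM in shCTR 1, 2 and 4. All 3 shNSD2 libraries lay below all shCTR libraries, and shNSD2 1 was the lowest. UHRF1 averaged 39.8 ± 5.71 CPM in shNSD2 and 69.7 ± 1.56 CPM in shCTR (SD, n = 3 each), which is 57.2% of the shCTR level. The log2 fold change was -0.81 (SE 0.107, 95% interval -1.04 to -0.57, edgeR adjusted p = 0.00116). Of all genes tested, 5.99% had a lower fold change. UHRF1 (ENSG00000276043) lies on chromosome 19 of GRCh38 from 4903080 to 4962154.

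DNMT1, the maintenance DNA methyltransferase, was the most abundant of the 10 transcripts and also fell. It stood at 206, 213 and 199 CPM in shNSD2 1, 2 and 3, against 315, 303 and 281 CPM in shCTR 1, 2 and 4. The groups did not overlap, and the lowest control was shCTR 4. The means were 206 ± 6.98 CPM in shNSD2 and 299.5 ± 17.3 CPM in shCTR (SD, n = 3 each). The log2 fold change was -0.54 (SE 0.0909, 95% interval -0.74 to -0.34, edgeR adjusted p = 0.00302). DNMT1 (ENSG00000130816) lies on chromosome 19 from 10133345 to 10231286, where its annotated span also holds S1PR2, a sphingosine phosphate receptor gene on the same strand. S1PR2 had 118, 119 and 119 counts in shNSD2 and 64, 61 and 87 in shCTR, far fewer than the 4032 to 6436 counts of DNMT1, and moved the other way (0.76, edgeR adjusted p = 0.0126).

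EZH2, the main catalytic subunit of PRC2, held 67.4, 70.9 and 66.8 CPM in shNSD2 1, 2 and 3, against 94.1, 85.5 and 90.3 CPM in shCTR 1, 2 and 4. The groups were well apart, with little spread inside either. The means were 68.4 ± 2.22 CPM in shNSD2 and 89.97 ± 4.27 CPM in shCTR (SD, n = 3 each), 76.0% of the shCTR level. The log2 fold change was -0.40 (SE 0.0809, 95% interval -0.57 to -0.22, edgeR adjusted p = 0.00641). EZH2 (ENSG00000106462) lies on chromosome 7 from 148807383 to 148884321.

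SUZ12, the scaffold of PRC2, held 74.4, 71.1 and 66.9 CPM in shNSD2 1, 2 and 3, against 92.7, 100.5 and 76.9 CPM in shCTR 1, 2 and 4. The groups did not overlap, but shCTR 4 stood close to shNSD2 1. The means were 70.8 ± 3.75 CPM in shNSD2 and 90.05 ± 12.0 CPM in shCTR (SD, n = 3 each). The log2 fold change was -0.35 (SE 0.106, 95% interval -0.58 to -0.11, edgeR adjusted p = 0.0316). The call was lost in 5 of the 6 fits with a library left out, with an adjusted p of 0.0648 without shNSD2 1, 0.0967 without shNSD2 2, 0.127 without shNSD2 3, 0.0659 without shCTR 1 and 0.140 without shCTR 2, and held without shCTR 4 (-0.45, adjusted p = 3.22e-04). SUZ12 (ENSG00000178691) lies on chromosome 17 from 31937018 to 32001045. Its partial copy SUZ12P1, a pseudogene whose reads may be shared with it, averaged 22.8 ± 1.86 CPM in shNSD2 and 22.9 ± 0.587 CPM in shCTR (SD, n = 3 each; log2 fold change -0.01, edgeR adjusted p = 0.969).

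EED, the subunit that reads H3K27 trimethylation, held 21.6, 24.2 and 24.8 CPM in shNSD2 1, 2 and 3, against 26.3, 26.3 and 26.5 CPM in shCTR 1, 2 and 4. All shNSD2 libraries were below all controls, yet the difference did not pass the test (-0.16, SE 0.0904, 95% interval -0.36 to 0.04, edgeR adjusted p = 0.189). Without shNSD2 1 the fold change was -0.10. EED was the 5th of the 10 genes, with the 4 called ones, whose shNSD2 libraries all lay below the shCTR libraries, an order seen in 22.8% of all genes tested. EED (ENSG00000074266) lies on chromosome 11 from 86244544 to 86278813.

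EZH1, the EZH2 paralog, stood at 44.0, 40.6 and 36.6 CPM in shNSD2 1, 2 and 3, against 37.6, 35.8 and 32.2 CPM in shCTR 1, 2 and 4. The groups overlapped, since shNSD2 3 lay below shCTR 1. The log2 fold change was 0.20 (SE 0.0985, 95% interval -0.02 to 0.42, edgeR adjusted p = 0.143). EZH1 (ENSG00000108799) lies on chromosome 17 from 42700275 to 42745049. JARID2, the accessory subunit, held 44.8, 39.6 and 36.3 CPM in shNSD2 1, 2 and 3, against 39.5, 42.8 and 40.2 CPM in shCTR 1, 2 and 4. These ranges lay on top of each other (-0.02, 95% interval -0.23 to 0.19, edgeR adjusted p = 0.885). JARID2 (ENSG00000008083) lies on chromosome 6 from 15246296 to 15522040, and its antisense gene JARID2-AS1 had at most 12 counts in a library.

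DNMT3A, a de novo methyltransferase, stood at 53.6, 43.1 and 39.9 CPM in shNSD2 1, 2 and 3, against 35.3, 43.8 and 35.3 CPM in shCTR 1, 2 and 4. It was the most variable of the 10 genes in shNSD2, with a coefficient of variation of 15.7% against a median of 5.97% over the 11218 genes that averaged 5 CPM or more. The groups overlapped at shCTR 2, and the log2 fold change was 0.25 (SE 0.127, 95% interval -0.03 to 0.54, edgeR adjusted p = 0.146). Without shNSD2 1 it was 0.13. DNMT3A (ENSG00000119772) lies on chromosome 2 from 25227855 to 25342590. DNMT3B, its paralog, held 24.6, 21.98 and 24.2 CPM in shNSD2 1, 2 and 3, against 25.2, 24.5 and 23.0 CPM in shCTR 1, 2 and 4. The ranges overlapped (-0.04, 95% interval -0.24 to 0.16, edgeR adjusted p = 0.770). DNMT3B (ENSG00000088305) lies on chromosome 20 from 32762385 to 32809356.

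TET2, the 5-methylcytosine dioxygenase, held 18.6, 19.4 and 17.7 CPM in shNSD2 1, 2 and 3, against 25.6, 24.7 and 18.8 CPM in shCTR 1, 2 and 4. The shNSD2 libraries were close together and shCTR 4 stood among them. The log2 fold change was -0.31 (SE 0.123, 95% interval -0.59 to -0.04, edgeR adjusted p = 0.0750). Without shCTR 4, TET2 was called lower (-0.44, adjusted p = 0.00131). TET2 (ENSG00000168769) lies on chromosome 4 from 105145875 to 105279816, and its antisense gene TET2-AS1 had at most 2 counts in a library.

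**Figure D1:**
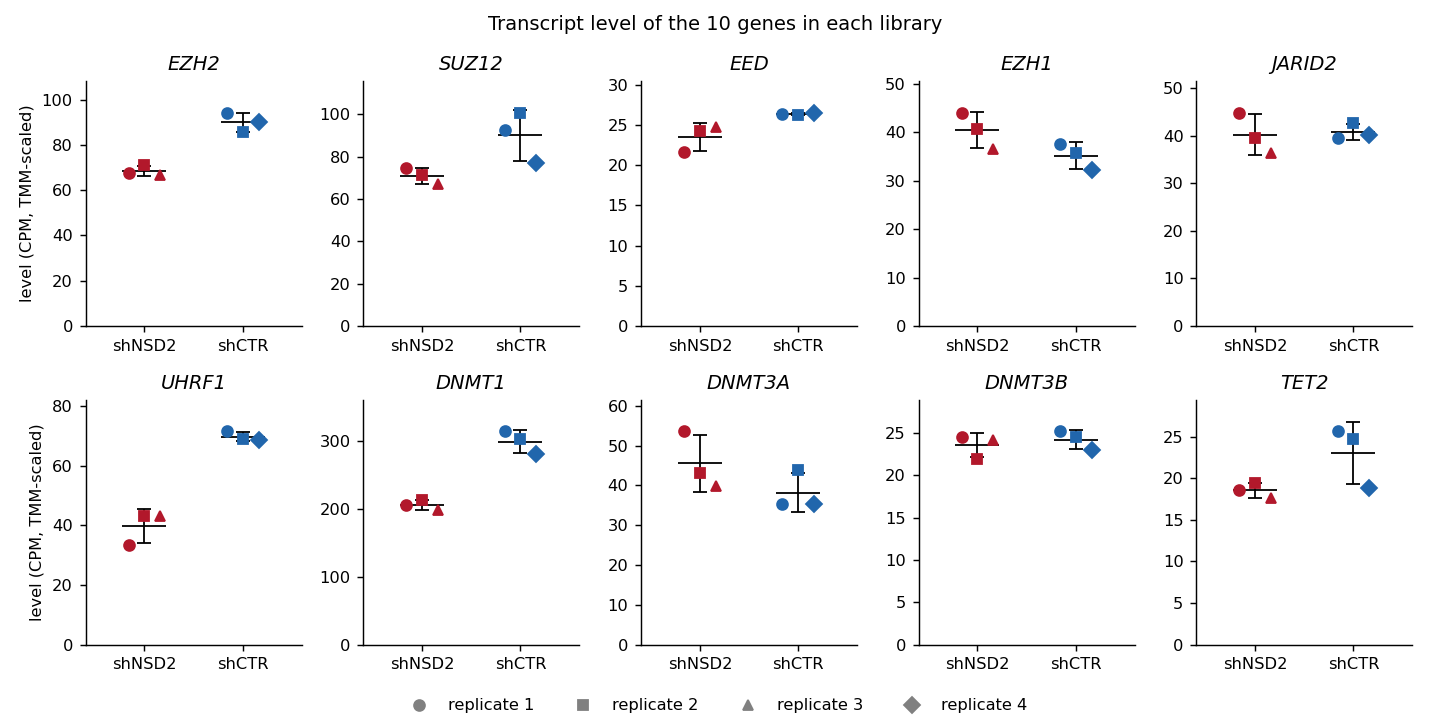
Level of each of the 10 genes in CPM scaled by TMM, in the shNSD2 libraries (left) and the shCTR libraries (right), with points for libraries, a bar for the mean and whiskers for the SD (n = 3 each). UHRF1, DNMT1, EZH2, SUZ12 and EED show no overlap between groups, and shCTR 4 is the lowest control for SUZ12 and TET2.

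The calls among the 10 genes changed when a trend on base composition and length was removed. After each library's trend on GC content and exon length was removed, UHRF1 (-0.83), DNMT1 (-0.47) and EZH2 (-0.32) were still called lower, and SUZ12 (-0.18, edgeR adjusted p = 0.146) was not. In that fit EZH1 (0.27, edgeR adjusted p = 0.0367) and DNMT3A (0.38, edgeR adjusted p = 0.0258) were called higher, which gave 3 lower and 2 higher. The fold change of TET2 was -0.02 and that of EED 0.04. The longest EED transcript had the lowest GC content of the 10, at 33.0%, and DNMT1 the highest, at 55.4%. That of TET2 was 43.0%, and TET2 had the longest merged exons of the 10, at 16474 bases. The fit does not separate GC content from length, and whether it also removed changes due to the knockdown was not tested.

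**Figure D2:**
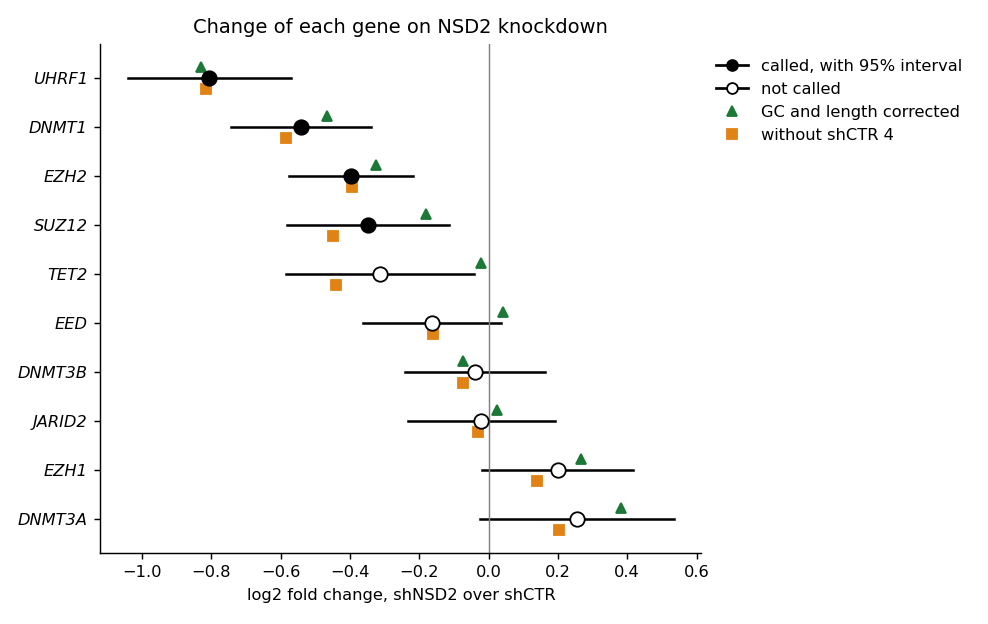
Log2 fold change of shNSD2 over shCTR for each of the 10 genes, with circles for the edgeR fit (filled where called), lines for the 95% interval, triangles for the fit corrected for GC content and length, and squares for the fit without shCTR 4. UHRF1, DNMT1 and EZH2 keep to the left of 0 in all 3 fits, while the corrected SUZ12 and TET2 lie closer to 0 and the corrected EZH1 and DNMT3A lie farther to the right.

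Levels of different genes were compared as CPM per kilobase of merged exons. In shNSD2 DNMT1 was highest at 21.0 ± 0.712 CPM per kilobase, followed by EZH2 at 15.1 ± 0.492, SUZ12 at 10.8 ± 0.573 and UHRF1 at 7.74 ± 1.11 (SD, n = 3). In shCTR the same 4 genes led, with DNMT1 at 30.6 ± 1.76, EZH2 at 19.9 ± 0.945, SUZ12 at 13.8 ± 1.84 and UHRF1 at 13.5 ± 0.302 CPM per kilobase (SD, n = 3). The 4 genes called lower were thus the 4 most abundant per length in either group. SUZ12 and UHRF1 overlapped in shCTR and did not in shNSD2. JARID2, EZH1 and DNMT3B formed the middle in shNSD2, where each range overlapped the next from UHRF1 down to DNMT3B. TET2 was lowest, at 1.13 ± 0.0534 CPM per kilobase in shNSD2 and 1.397 ± 0.226 in shCTR (SD, n = 3). With the longest transcript as the length, chosen after the data were seen, the first 4 places and the last were the same, and EED moved from the 9th place to the 6th in shNSD2 and from the 8th to the 5th in shCTR.

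Within a library, the ratio of 2 genes does not depend on scaling. The log2 ratio of EZH2 to EZH1 counts was 0.62, 0.80 and 0.87 in shNSD2 1, 2 and 3, against 1.32, 1.26 and 1.49 in shCTR 1, 2 and 4. The shNSD2 libraries all lay below, by 0.59 on average, and the exact two-sided permutation p was 0.1, which is the least this design can give (0.175 adjusted over 7 ratios compared). Per kilobase, EZH2 made up 70.3% to 73.8% of EZH1 plus EZH2 in shNSD2 and 78.7% to 81.3% in shCTR. The log2 ratio of DNMT3B to DNMT3A was -1.12, -0.97 and -0.72 in shNSD2 1, 2 and 3, against -0.49, -0.84 and -0.62 in shCTR 1, 2 and 4, and the groups overlapped (exact permutation p = 0.2, adjusted 0.28). The log2 ratio of UHRF1 to DNMT1 was -2.63, -2.30 and -2.20 in shNSD2 1, 2 and 3, against -2.14, -2.14 and -2.03 in shCTR 1, 2 and 4. All shNSD2 values lay below, by 0.28 on average (exact permutation p = 0.1, adjusted 0.175) and by 0.15 without shNSD2 1.

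**Figure D3:**
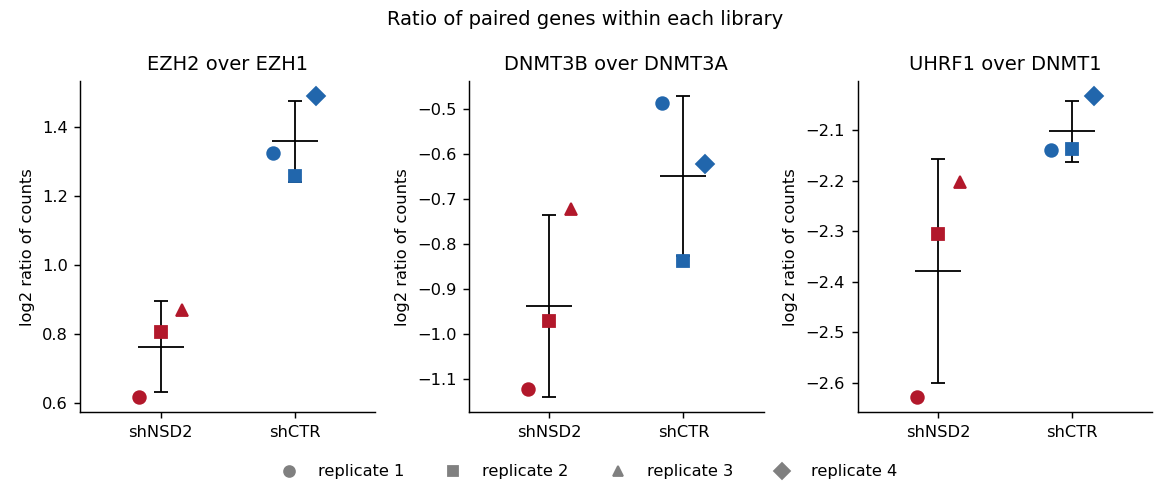
Log2 ratio of the counts of paired genes within each library, for EZH2 over EZH1, DNMT3B over DNMT3A and UHRF1 over DNMT1, with shNSD2 left and shCTR right, a bar for the mean and whiskers for the SD (n = 3 each). The EZH2 to EZH1 ratio is 0.62 to 0.87 in shNSD2 and 1.26 to 1.49 in shCTR, with no overlap.

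Genes of S phase, the phase of DNA copying, mostly fell in shNSD2, the same direction between groups as the 4 called genes. Of 20 listed, 19 fell and 0 rose by edgeR, against 15.2% and 15.5% of all genes tested. All 20 fold changes were negative, with a median of -0.60, and PCNA did not pass the test (-0.27, edgeR adjusted p = 0.0752). With a library left out, 16 to 20 fell. POLA1 (-0.67), GINS1 (-0.62) and E2F1 (-0.71) had the smallest p. The list summed to 1420 to 1670 CPM in shNSD2 and 2288 to 2411 CPM in shCTR. Its part in the falls of the 4 genes was not tested.

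Set against the mean log2 CPM of those 20 genes, a comparison chosen after the data were seen, the 4 genes differed among themselves. UHRF1 stood at -0.68, -0.55 and -0.54 relative to that mean in shNSD2 1, 2 and 3, against -0.33, -0.37 and -0.42 in shCTR 1, 2 and 4, lower in every shNSD2 library than in any control, by 0.22 on average (exact permutation p = 0.1, adjusted 0.175). EZH2 stood at 0.33, 0.17 and 0.09 in shNSD2 and 0.07, -0.06 and -0.02 in shCTR, higher in every shNSD2 library than in any control, by 0.20 on average (exact permutation p = 0.1, adjusted 0.175) and by 0.13 without shNSD2 1. For DNMT1 the groups overlapped and the difference was 0.06 (exact permutation p = 0.7), with the sign turned without shNSD2 1 or shCTR 4. For SUZ12 they overlapped as well, with a difference of 0.26 (exact permutation p = 0.3) that was 0.14 without shNSD2 1 and 0.13 without shCTR 4. In shNSD2 1 the S-phase mean and UHRF1 were both at their lowest.

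**Figure D4:**
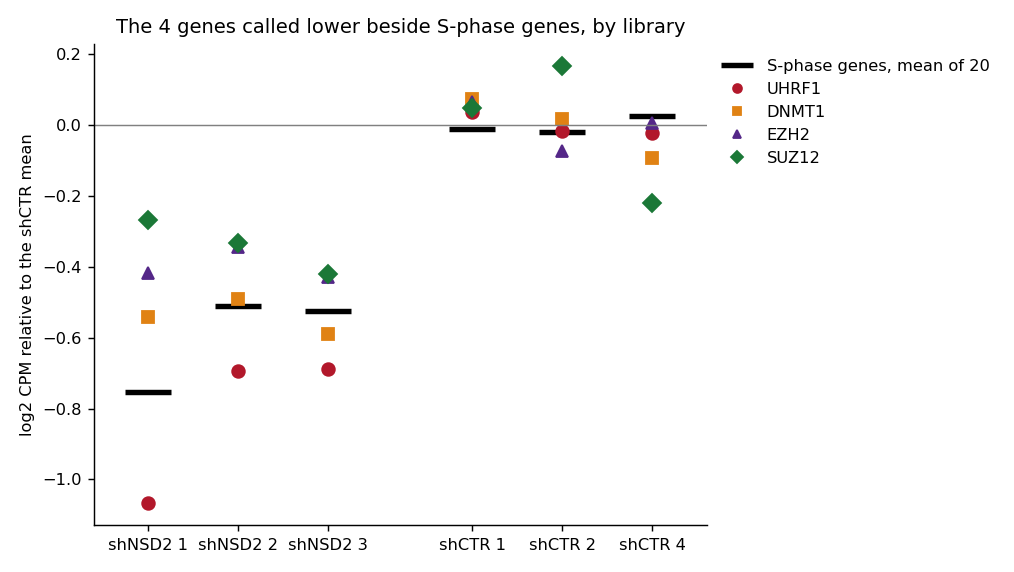
Log2 CPM relative to the mean of the shCTR libraries, by library, for UHRF1, DNMT1, EZH2 and SUZ12 (symbols) and for the mean of 20 S-phase genes (bars). In the shNSD2 libraries UHRF1 lies under the bars, EZH2 and SUZ12 lie above them, and DNMT1 lies above the bar in shNSD2 1 and near it in shNSD2 2 and 3.

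E2F and pocket protein genes, which control entry into S phase, had 8 of 13 lower and 0 higher by edgeR. Their median was -0.53, and over all genes tested 15.2% were called lower and 15.5% higher. RBL1 (-0.97), E2F7 (-1.09) and E2F1 had the smallest p. Of these 13, 8 were lower whichever library was left out, and 1 was higher without shCTR 4.

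The genes closest in pattern to each called gene were taken by the root mean square difference of log2 CPM, centred on the shCTR mean, over the 6 libraries and 11217 other genes. For UHRF1 they were MCM10 (0.07), BRCA1 (0.07) and RRM2 (0.07), which act in DNA copying, repair and nucleotide supply. For DNMT1 they were SETBP1 (0.03), WDHD1 (0.03) and MTDH (0.03). LSG1, THNSL2 and AC004656.1 were nearest to EZH2 (0.03 to 0.04), and SIK3, ARFGEF1 and ZCCHC14 to SUZ12 (each 0.04).

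Of 7 tested accessory subunits of PRC2 (11 names listed), 2 rose, 1 fell and the rest did not pass the test, with a median of 0.04; over all genes tested 15.5% rose and 15.2% fell. PHF1 (0.43) and PHF19 (0.41), Polycomb-like proteins, rose, and LCOR, whose locus also encodes the accessory protein PALI1, fell (-0.45). No more than 1 of them was called in a given direction without any library other than shCTR 4, and 3 rose and 1 fell without shCTR 4. RBBP4, the histone-binding subunit, averaged 247 ± 1.58 CPM in shNSD2 and 241 ± 27.2 CPM in shCTR (SD, n = 3 each; 0.04, edgeR adjusted p = 0.812).

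PRC1, the complex that ubiquitinates histone H2A, had 3 of 23 tested subunits higher and 3 lower, with a median of 0.00. The shares called over all genes tested were 15.5% higher and 15.2% lower. PCGF5 fell (-0.94) and its paralog PCGF2 rose (0.55). Lower subunits numbered 6 without shCTR 4, 2 without shCTR 1 and 1 without any other library, and 2 to 4 were higher. Of 5 tested genes for removing H3K27 methyl or H2A ubiquitin marks, 1 fell and 0 rose by edgeR, with 1 higher without shCTR 4. It was ASXL2 (-0.56), and its call was lost without shCTR 2, shNSD2 2 or shNSD2 3, while 3 fell without shCTR 4.

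Beside DNMT1 and UHRF1, 4 of 14 tested partners and readers of DNA methylation fell and 0 rose by edgeR, with a median of -0.16. Among all genes tested, 15.2% fell and 15.5% rose. HELLS, the remodeller that opens chromatin for maintenance methylation, fell to 35.9 ± 3.15 CPM in shNSD2, against 56.4 ± 0.871 CPM in shCTR (SD, n = 3 each; -0.65, edgeR adjusted p = 0.00132). The UHRF1 paralog UHRF2 (-0.34), the HELLS partner CDCA7 (-0.42) and ZBTB38 (-0.46), a reader of methylated CpG, fell too. Lower members numbered 6 without shCTR 4 and 1 or 2 without any other library, and 1 was higher without shCTR 4. Of 10 genes of DNA demethylation beside TET2, 4 rose and 1 fell, with a median of 0.19. TET3 fell (-0.58), and TET1 did not pass the test (-0.40, edgeR adjusted p = 0.255). GADD45B (0.83) and GADD45A (0.45), stress genes linked to demethylation, rose, as did IDH2 (0.33) and SMUG1 (0.28). Higher members numbered 6 without shCTR 4 and 1 or 2 without any other library, and 2 were lower without shCTR 4.

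Enzymes that supply the methyl donor had 2 of 11 higher and 5 lower (15.5% and 15.2% over all genes tested). Their median was -0.04. MTRR (-0.35), of methionine metabolism, fell, and AHCY, which clears the product of methylation reactions, rose (0.50). The rises were lost without any library other than shCTR 4, where 3 were higher, and lower members numbered 5 without shCTR 4, 3 without shCTR 1 and 0 or 1 without any other library (0 without shNSD2 2, by edgeR).

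HOX genes, a classical target of PRC2, had 7 of 24 tested higher and 3 lower (15.5% and 15.2% over all genes tested). Their median was 0.24. HOXD8 stood at 1.04 ± 0.329 CPM in shNSD2 and 0.184 ± 0.0818 CPM in shCTR (SD, n = 3 each; 2.47, edgeR adjusted p = 0.00341), which is near the floor of 3 counts. HOXB9 rose (0.78) and HOXA13 fell (-0.93). The 3 lower genes were of the HOXA cluster and the 7 higher ones of the HOXB, HOXC and HOXD clusters, a split noticed after the values were seen. Higher genes numbered 9 without shCTR 4, 6 without shNSD2 1, 4 without shNSD2 2, 3 without shNSD2 3 or shCTR 1 and 2 without shCTR 2, and after the correction for GC content and length 5 were higher and 6 lower.

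Germline genes known to be silenced by DNA methylation numbered 30 in the list, of which 22 had a row and 11 were tested. Of the 11, 2 rose and 1 fell (15.5% and 15.2% over all genes tested), with a median of 0.17. BRDT fell to 0.435 ± 0.261 CPM in shNSD2, against 4.30 ± 2.16 CPM in shCTR (SD, n = 3 each). Its log2 fold change was -3.29 (edgeR adjusted p = 0.00168), and shNSD2 1 lay at the floor of 3 counts (0.153 CPM). PAGE1 (0.41) and SOHLH2 (0.67) rose, and these rises were lost without any library other than shCTR 4. PAGE1 was not silent in the controls, at 164 ± 37.2 CPM in shCTR, and neither was MAGEA3, at 106 ± 13.0 CPM (SD, n = 3). Of 20 genes known as silenced in prostate cancer, 11 were tested, and 3 rose and 3 fell with a median of -0.14. ESR2 (-2.06) and RARB (-0.96), both at a few CPM or less, fell, and ESR2 lay at the floor in shNSD2 1 (0.153 CPM). MGMT rose (0.82), from 22.8 ± 6.93 CPM in shCTR (SD, n = 3). GSTP1, the gene best known for promoter methylation in this cancer, had at most 1 count in a library. In that list 3 were higher and 5 lower without shCTR 4, and 1 or 2 higher and 2 or 3 lower without any other library.

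**Figure D5:**
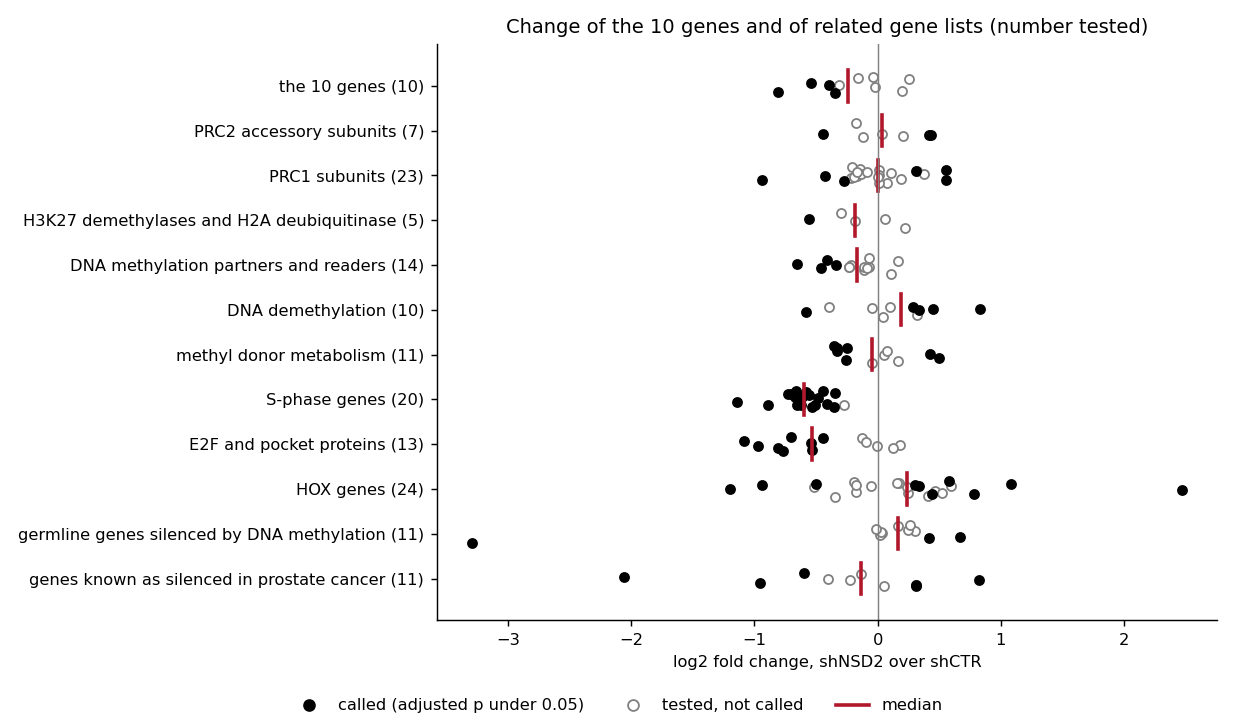
Log2 fold change of shNSD2 over shCTR for the 10 genes and for each tested gene of 11 related lists, with filled points for called genes, open points for genes not called and a red line for the median. The S-phase list (median -0.60) and the E2F list (-0.53) lie to the left of the 10 genes (-0.24), and the PRC1 list is centred on 0.00.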

How the data were processed

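RNA-seq was made from 3 shNSD2 and 3 shCTR libraries of C42 cells, with a KAPA mRNA kit that selects polyadenylated RNA per the labels' protocols. The authors deposited raw read counts per gene, with Ensembl identifiers and symbols. They used CASAVA 1.8.2, STAR 2.6.0a and GRCh38, per the submitters' processing notes. How reads were counted, against which annotation and with which strand setting, is not stated in the labels, so reads of a gene and of its antisense or overlapping partner could not be separated. Groups and replicate numbers were read from the titles.

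The test was edgeR 4.0.16 (R 4.3.3; filterByExpr, TMM, glmQLFit and glmQLFTest, no covariate), run on all 17160 genes that passed the filter, with Benjamini-Hochberg adjustment over them and a threshold of 0.05. Standard errors and 95% intervals were derived from the F statistic. Positions, exon lengths and transcript GC content came from GENCODE 29 on GRCh38. Promoters came from RefSeq on GRCh38.p14, using the first row of each symbol, and 10 of the 10 genes matched. The fit was checked on simulated data.

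The 10 genes and the lists were chosen with earlier results of these data known. The text names the 10 genes, NSD2, up to 3 called genes of smallest p in each list, and the 3 nearest patterns of each called gene. Some genes that meet this rule are not reported here. Other genes were chosen after their values were seen. Alternatives were DESeq2 size factors, upper-quartile factors, plain library size, the DESeq2 1.42.0 Wald test, limma-voom 3.58.1, 2 other filters, a replicate block, each library left out, and a correction for GC content and length. S-phase ratios, longest transcripts and the 4 libraries without the block were added after seeing the data. A floor of 3 counts is 0.145 to 0.156 CPM and covers counting error only.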

Additional observations from a re-analysis of the deposited data

How the results depend on the processing

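UHRF1, DNMT1, EZH2 and NSD2 were called lower under every alternative run. SUZ12 lost its call under the GC and length correction (-0.18) and in 5 fits without a library (log2 fold changes of -0.26 to -0.45 over the 6 such fits). TET2 was called without shCTR 4 (-0.44, in a range of -0.24 to -0.44 with a library left out), with the replicate block (-0.40), and in the same 4 libraries without the block (-0.40). The correction made 2 members higher, EZH1 (0.27) and DNMT3A (0.38), where 0 were higher otherwise, and turned EED to 0.0421. The near-zero fold change of JARID2 turned positive with upper-quartile factors (1.01e-03), the replicate block (0.0404), the same 4 libraries without the block (0.0417), the correction (0.0237), without shNSD2 3 (0.0462) and without shCTR 2 (0.0144), in a range of -0.101 to 0.0462 with a library left out, and that of DNMT3B without shNSD2 2 (0.0139, in a range of -0.0740 to 0.0139 with a library left out). Leaving out a library gave 1116 to 4251 genes higher and 1320 to 4011 genes lower, most without shCTR 4. The shNSD2 minus shCTR difference in the log2 ratio of DNMT1 to S-phase genes turned to -0.0217 without shNSD2 1 and to -3.26e-03 without shCTR 4, in a range up to 0.117 with a library left out. Among the related lists, the correction gave 1 PRC2 accessory gene higher and 0 lower. It gave 0 lower genes for removing H3K27 methyl or H2A ubiquitin marks, 2 lower methylation partners and 2 lower methyl donor genes. It also gave 1 higher germline gene, 1 higher E2F gene, 6 lower HOX genes and 1 lower luminal marker. The cause of these shifts was not tested. The 4 libraries of the block gave, with and without it, 2 lower genes for removing H3K27 methyl or H2A ubiquitin marks. They also gave, either way, 5 lower genes known as silenced in prostate cancer and 0 higher endothelial markers (edgeR). These counts thus moved with the libraries left out, while lower methyl donor genes numbered 2 with the block and 5 without it. Scaling, filter and test moved list counts as well. Lower methyl donor genes numbered 3 with upper-quartile factors and 2 with no low-count filter. The DESeq2 Wald test and the fit with no low-count filter each gave 1 higher germline gene and 1 higher gene known as silenced in prostate cancer. Replicate numbers 1 and 2 occur in both groups, and the deviations of same-numbered libraries correlated at 0.04 and -0.18 over 11218 genes. With 3 libraries in each group, these correlations cannot decide whether same-numbered libraries were prepared together. Differently numbered libraries correlated at -0.43 to 0.48, highest for shNSD2 1 with shCTR 2 (0.48) and shNSD2 3 with shCTR 4 (0.43). The block on those 4 libraries gave 3189 genes higher and 2937 lower, against 3675 and 3380 without it. Members had 360 to 6436 counts in a library, and none was limited by the floor.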
